A study of Sus scrofa with 4 samples.

Results

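To describe the transcripts with which mature porcine oocytes meet superoxide and peroxides, and to compare them after exposure to copper (Cu), 10 genes were taken by their symbol from the table of gene expression values of the series. They are SOD1, SOD2 and CAT, GPX1, GPX4 and GSR, GCLC and GCLM, and NFE2L2 and KEAP1, and each had 1 row among the 16050 genes with values (30684 rows in all). The rows were selected by gene name, and the list itself was drawn up with earlier results of these data known. The libraries came from porcine oocytes at metaphase II, matured in vitro as cumulus-oocyte complexes from slaughterhouse ovaries, with no Cu added (Control replicates 1 and 2) or with 25 μg/mL Cu from a copper sulfate solution in the maturation medium (Cu replicates 1 and 3). Maturation medium, hormones and a culture of 44 h were shared by both groups, and dose and time are those of the experiments in general. Each library held 3 oocytes, whose polyadenylated transcripts were copied and amplified by the Smart-seq2 method for single cells. The study describes 3 sets per group, and the values of 2 libraries per group were analysed here.

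Superoxide is converted by superoxide dismutases to hydrogen peroxide, which is broken down by catalase or, at the cost of reduced glutathione, by glutathione peroxidases. Glutathione reductase returns the oxidised glutathione to its reduced form with NADPH, and glutamate-cysteine ligase makes the first and limiting step of new synthesis. Many of these genes can be activated by the transcription factor NRF2 (gene NFE2L2), which KEAP1 holds in the cytoplasm and hands to a ubiquitin ligase as long as its reactive cysteines are not modified. An oocyte at metaphase II has largely ceased transcription, so that its mRNA is mostly what was stored during growth minus what has been degraded, and a high glutathione content is known as a mark of cytoplasmic maturation in the pig.

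The libraries carried the transcripts of oocytes. All 12 oocyte markers looked up had values, with a sum between 7198 and 9893 FPKM per library (fragments scaled to transcript length and library size, a level that allows comparison between genes). Of 20 markers of cumulus and granulosa cells, 13 had values, with a sum of 11.7 to 18.2 FPKM. Almost all of it was FST, and without FST, singled out after its values were seen, no value exceeded 1.43 FPKM and AMH and NR5A2 were listed at 0 in every library. The summed level was 0.09 to 2.16 FPKM for 3 blood and immune markers with values and 0.98 to 2.47 FPKM for 6 theca and fibroblast markers. Cu 1 stood apart from the other libraries, with 9364 genes at 1 FPKM or more against 7923 to 8162, and with correlations across genes of 0.918 to 0.923 with the other libraries, which reached 0.959 to 0.976 among themselves. For the members and the gene lists, values without Cu 1 are therefore given where they moved the result. The depth of the libraries cannot be read from FPKM. In a library of a few whole oocytes, fewer intact cells and less RNA per cell cannot be told apart. Nor can the amount of a transcript and its polyadenylation, since polyadenylated transcripts were copied. The labels do not say that the libraries came from separate cultures, so the p-values measure the spread between these libraries, which may be technical.

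The 10 genes covered a wide range of levels in the Control oocytes. SOD1 was the highest with 618 ± 27.3 FPKM (mean ± SD, n = 2), above 99.2% of all genes in each Control library. GSR followed with 109 ± 11.8 FPKM and CAT with 83.9 ± 33.1 FPKM, and these 2 levels did not differ beyond their spread. The next 4 genes, SOD2 with 29.3 ± 0.47 FPKM, GCLC with 28.3 ± 3.91 FPKM, NFE2L2 with 27.8 ± 3.12 FPKM and GPX1 with 25.5 ± 3.35 FPKM, lay so close that each overlapped its neighbour in the order. GPX4 with 1.56 ± 0.68 FPKM and GCLM with 1.46 ± 0.05 FPKM stood far below them and also overlapped, and KEAP1 was the lowest with 0.18 ± 0.01 FPKM. The breaks between CAT and SOD2, between GPX1 and GPX4 and between GCLM and KEAP1 remained when the range of all 4 libraries was taken for each gene. SOD1 alone made up 63.4% to 72.8% of the summed FPKM of the 10 genes, which was 0.13% to 0.18% of all FPKM in a library.

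**Figure D1:**
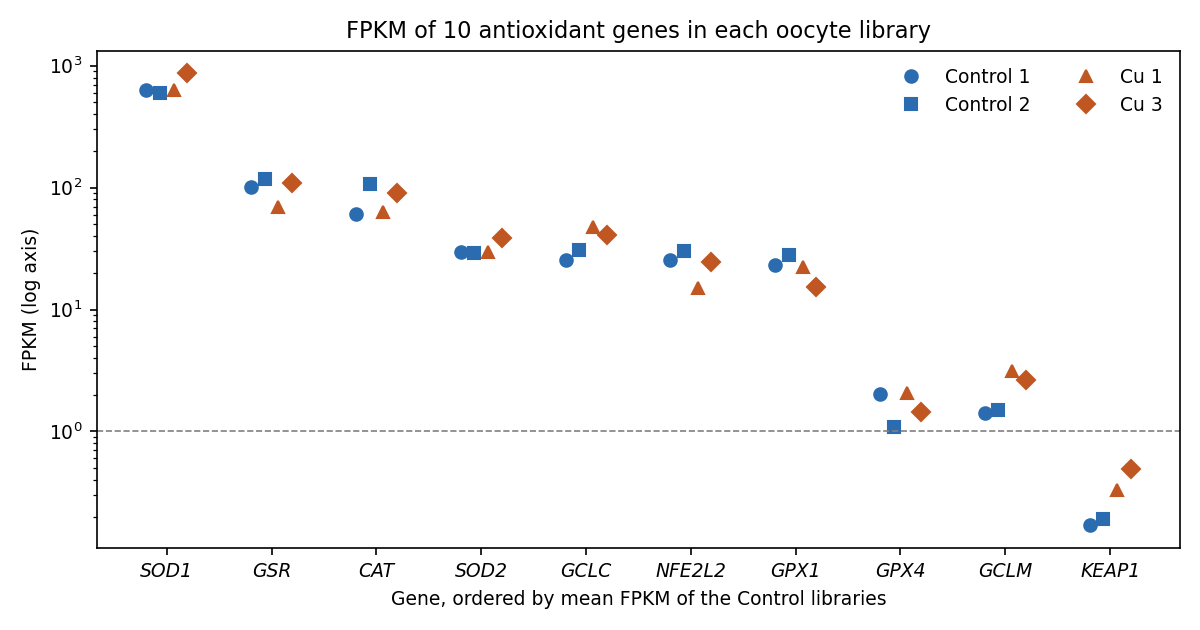
FPKM of the 10 genes on a log axis in Control 1 and 2 (blue) and Cu 1 and 3 (orange), with 1 point per library and a dashed line at 1 FPKM, the level required for a test. SOD1 lies between 599 and 866 FPKM in every library, GPX4 and GCLM lie between 1.08 and 3.14 FPKM, and KEAP1 stays at or under 0.49 FPKM.

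The comparison of Cu with Control oocytes was made on log2(FPKM + 1) for the 8541 genes that reached 1 FPKM in 2 libraries or more, of which 9 were members. An adjusted p of 0.05 was reached by no gene (limma with Benjamini-Hochberg adjustment, 0% of the genes tested), and none of the 9 members had an unadjusted p of 0.05 or less either, a limit passed upward by 5.58% and downward by 1.43% of all genes. When a log2 fold change of 1.5 was required as well, none of the members, 1.76% of all genes upward and 0.117% downward were past the limits. A positive log2 fold change was seen in 5 of the 9 members (55.6%) and in 64.3% of all genes. Groups that did not overlap were found upward in 2 of the 9 tested members, GCLC and GCLM, and downward in 2, GPX1 and NFE2L2, that is 22.2% in each direction, where over all tested genes the groups were separated upward in 25.4% and downward in 13.4%. The members' counts were thus near those of all genes. Their log2 fold changes ran from -0.50 to 0.66 with a median of 0.11, compared with a median of 0.16 and middle 50% from -0.15 to 0.51 over all tested genes. With 2 libraries against 2, the smallest p of an exact two-sided permutation test is 0.333 for any single gene.

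The superoxide dismutases and catalase showed overlapping groups. SOD1, the cytosolic enzyme that itself carries copper and zinc (identifier 397036, chromosome 13, 195326573 to 195335273 in Sscrofa11.1), had 637 and 599 FPKM in Control 1 and 2 against 630 and 866 FPKM in Cu 1 and 3. Only Cu 3 was above the Control libraries, and the log2 fold change was 0.26 with a standard error of 0.27 and a 95% confidence interval from -0.41 to 0.92 (adjusted p = 0.838 in limma's test). Without Cu 3 it was 0.03, and without Cu 1 it was 0.49. The authors' mean of each group, which their decimals show to be taken over 3 libraries, was 718 FPKM of SOD1 for Control and 717 FPKM for Cu.

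SOD2, the manganese enzyme of the mitochondrial matrix (identifier 100154319, chromosome 1, 7679352 to 7689564), had 29.6 and 28.9 FPKM in the Control libraries against 29.5 and 38.6 FPKM in Cu 1 and 3. It followed the course of SOD1, with only Cu 3 above the Control libraries and a log2 fold change of 0.20 (95% confidence interval -0.59 to 0.98), which was 0.39 without Cu 1, 0.01 without Cu 3 and -0.04 after median-of-ratios scaling of the FPKM. CAT, the peroxisomal catalase (identifier 397568, chromosome 2, 26493664 to 26533881), had 60.5 and 107 FPKM in Control 1 and 2 against 62.6 and 90.3 FPKM in Cu 1 and 3. Both Cu libraries lay between the Control libraries, which differed from each other 1.77-fold, and the log2 fold change of -0.10 had a confidence interval from -1.06 to 0.86 and was 0.16 without Cu 1.

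Of the glutathione peroxidases, GPX1, the abundant selenoenzyme of cytosol and mitochondria (identifier 397403, chromosome 13, 31916269 to 31917337), had 23.2 and 27.9 FPKM in Control 1 and 2 against 22.2 and 15.4 FPKM in Cu 1 and 3. Both Cu libraries were below both Control libraries, Cu 1 by a narrow margin, and the log2 fold change was -0.44 with a standard error of 0.35 and a confidence interval from -1.30 to 0.42 (adjusted p = 0.795 in limma's test). It was -0.69 without Cu 1 and -0.19 without Cu 3. The authors' means gave the opposite direction, 21.9 FPKM for Control and 31.0 FPKM for Cu, a log2 difference of 0.48.

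GPX4, the selenoenzyme that reduces lipid hydroperoxides within membranes (identifier 399537, chromosome 2, 77321568 to 77323931), was weakly represented, with 2.04 and 1.08 FPKM in Control 1 and 2 against 2.05 and 1.43 FPKM in Cu 1 and 3. The groups overlapped and the log2 fold change of 0.11 (confidence interval -0.80 to 1.03) changed its sign to -0.18 with quantile normalization, -0.05 with median-of-ratios scaling and -0.23 by the authors' means. GSR, the reductase that regenerates glutathione (identifier 396625, chromosome 15, 54382564 to 54433989), had 101 and 117 FPKM in Control 1 and 2 against 69.8 and 109 FPKM in Cu 1 and 3. Cu 1 was below both Control libraries while Cu 3 lay between them. The log2 fold change of -0.31 (confidence interval -1.13 to 0.50) was 0.005 without Cu 1 and -0.63 without Cu 3.

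Both subunits of glutamate-cysteine ligase were higher in each Cu library than in each Control library, by 1.56-fold for GCLC and 1.98-fold for GCLM in the group means, without passing the test. GCLC, the catalytic subunit (identifier 100522018, chromosome 7, 27209565 to 27253535), had 25.5 and 31.1 FPKM in Control 1 and 2 against 47.3 and 40.7 FPKM in Cu 1 and 3. The resulting log2 fold change was 0.62 with a standard error of 0.31 and a confidence interval from -0.15 to 1.39 (adjusted p = 0.721 in limma's test, unadjusted 0.0951). GCLM, the modifier subunit that raises the affinity of the enzyme for glutamate (identifier 100153977, chromosome 4, 123371198 to 123390130), had 1.42 and 1.49 FPKM in Control 1 and 2 against 3.14 and 2.62 FPKM in Cu 1 and 3. The resulting log2 fold change was 0.66 with a standard error of 0.34 and a confidence interval from -0.17 to 1.49 (adjusted p = 0.726, unadjusted 0.101).

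These were the largest upward log2 fold changes among the tested members, and they held in the direction in every setting tried. When single libraries were left out, the log2 fold change ranged from 0.49 to 0.76 for GCLC (0.73 without Cu 3) and from 0.56 to 0.75 for GCLM. Median-of-ratios scaling, which moved the median of all genes from 0.16 to -0.04, gave 0.38 for GCLC and 0.49 for GCLM. The authors' means gave 0.36 and 0.37, but they also draw on the libraries used here and are not independent of them. A difference of this size was not rare, as 75.9% of all tested genes had a smaller absolute log2 fold change than GCLC and 78.2% a smaller one than GCLM.

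The genes of NRF2 control went in opposite directions. NFE2L2, which encodes NRF2 (identifier 100516343, chromosome 15, 82967485 to 83146185), had 25.6 and 30.0 FPKM in Control 1 and 2 against 15.1 and 24.4 FPKM in Cu 1 and 3. Both Cu libraries were below both Control libraries, Cu 1 clearly and Cu 3 by a little, and the log2 fold change was -0.50 with a standard error of 0.37 and a confidence interval from -1.41 to 0.40 (adjusted p = 0.784 in limma's test). It was -0.17 without Cu 1, -0.83 without Cu 3, -0.74 with median-of-ratios scaling and -0.26 by the authors' means. KEAP1, the sensor and adaptor that targets NRF2 for degradation (identifier 100136900, chromosome 2, 69280940 to 69290267), had 0.17 and 0.19 FPKM in Control 1 and 2 against 0.33 and 0.49 FPKM in Cu 1 and 3. Each Cu library was above each Control library, but KEAP1 lay under 1 FPKM in every library and was left out of the main test. How many fragments such a value rests on is unknown. With no filter, the log2 fold change of KEAP1 was 0.255 (unadjusted p = 0.0864, adjusted p = 0.818 in limma's test). The authors' means of KEAP1 were 0.16 FPKM for Control and 0.27 FPKM for Cu.

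**Figure D2:**
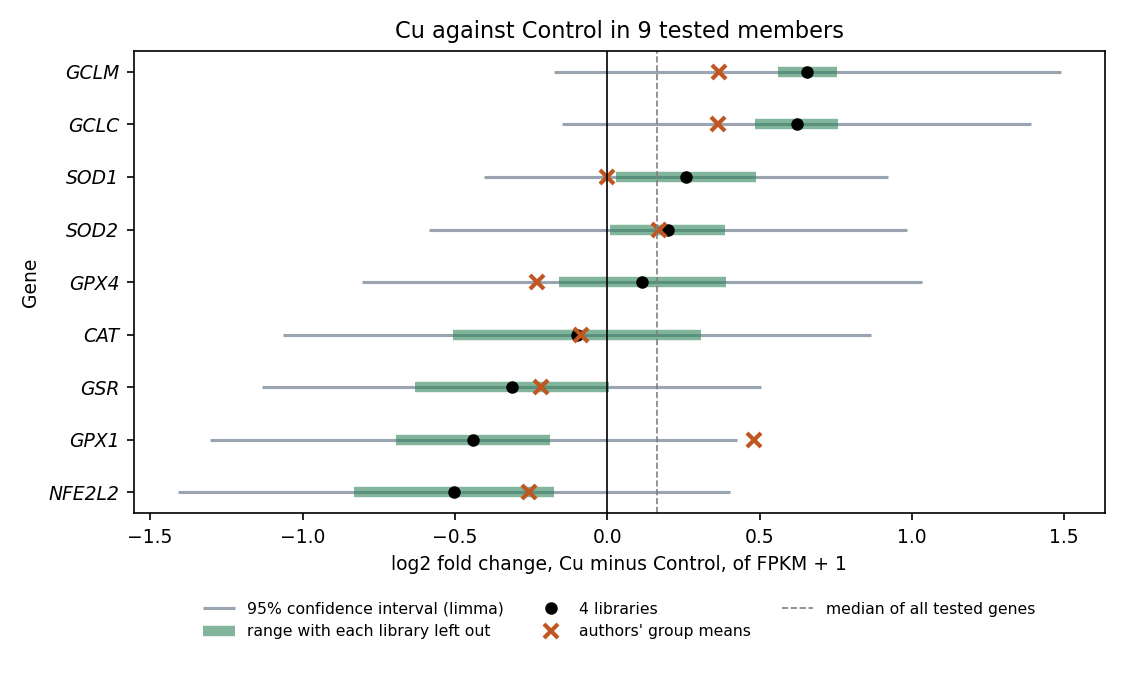
Log2 fold change of FPKM + 1, Cu minus Control, of the 9 tested genes, with the value from the 4 libraries (black), its 95% confidence interval in limma's fit (grey), the range with each library left out (green) and the value from the authors' group means (orange crosses). Each confidence interval includes 0. The points, crosses and green ranges of GCLC and GCLM lie above 0 and those of NFE2L2 below 0, while the cross of GPX1 lies at 0.48, on the other side of 0 from its value of -0.44.

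A ratio of 2 genes within a library is left as it is by a scaling factor for the whole library, and 4 such pairs were compared. It is not left as it is by a shift that differs between high and low levels. SOD1 exceeded SOD2 in FPKM by 21.5-fold and 20.7-fold in Control 1 and 2 and by 21.4-fold and 22.4-fold in Cu 1 and 3. The mean log2 ratio was 4.40 ± 0.04 (SD, n = 2) in Control and 4.45 ± 0.05 in Cu, a difference of 0.05 between groups that overlapped (exact two-sided permutation test, p = 0.667, the same after adjustment over the 4 pairs). The ratio of the cytosolic to the mitochondrial dismutase transcript thus varied little over the 4 libraries, although Cu 3 had more of both.

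GPX1 exceeded GPX4 by 11.4-fold and 25.8-fold in Control 1 and 2 and by 10.8-fold and 10.7-fold in Cu 1 and 3. The difference in the log2 ratio of GPX4 to GPX1, 0.67, rested on Control 2 and was 0.07 without it. GCLC exceeded GCLM by 18.0-fold and 20.8-fold in Control 1 and 2 and by 15.0-fold and 15.6-fold in Cu 1 and 3, a difference in the log2 ratio of GCLM to GCLC of 0.34 between groups that did not overlap, which was 0.035 as a ratio of FPKM + 1.

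The widest difference was between NFE2L2 and KEAP1. NFE2L2 exceeded KEAP1 by 150-fold and 158-fold in Control 1 and 2 and by 45.8-fold and 49.8-fold in Cu 1 and 3. The mean log2 ratio was 7.27 ± 0.05 (SD, n = 2) in Control and 5.58 ± 0.09 in Cu, a difference of -1.69, which lay between -1.75 and -1.63 when single libraries were left out. It was large compared with the spread within either group, but the exact two-sided permutation test gave its smallest possible p of 0.333 (0.444 after adjustment over the 4 pairs), as it did for GPX4 to GPX1 and GCLM to GCLC. With 1 added to the FPKM the difference was -0.76, since the ratio depends on KEAP1 values under 1 FPKM. By rank among all genes, KEAP1 stood at percentile 32.6 and 31.8 in Control 1 and 2. It stood at 29.9 in Cu 1 and 42.2 in Cu 3, so its higher FPKM in Cu 1 was not a higher rank.

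**Figure D3:**
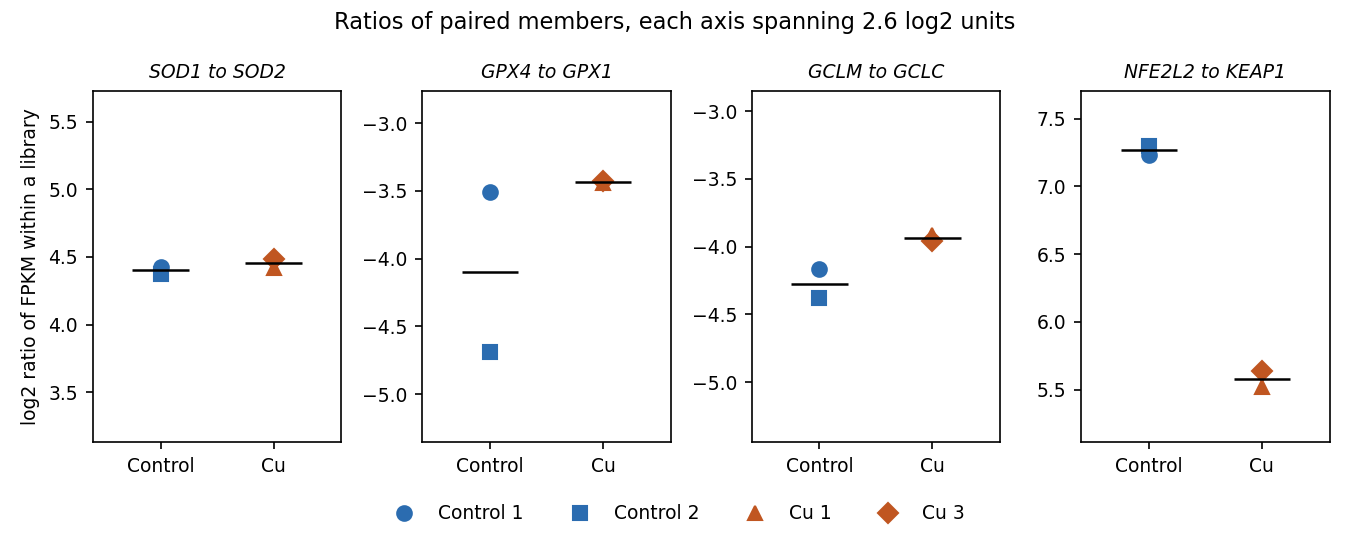
Log2 ratio of FPKM of 4 gene pairs within each library, for Control 1 and 2 (blue) and Cu 1 and 3 (orange), with the group mean as a line and every axis spanning 2.6 log2 units. SOD1 to SOD2 stays between 4.37 and 4.49 in all libraries, and NFE2L2 to KEAP1 lies at 7.23 and 7.30 in Control and at 5.52 and 5.64 in Cu.

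To see which other genes shared the course of a member, all other tested genes were ranked by the root mean square difference of log2(FPKM + 1), after subtraction of each gene's mean over the 4 libraries. Among the nearest to SOD1, the member with the highest level, were RAMAC (0.025) and LCMT2 (0.031). Both had higher values in Cu 3 than in the other libraries, RAMAC with 254 and 230 FPKM in Control 1 and 2 against 239 and 332 FPKM in Cu 1 and 3. The nearest to GCLM, the member with the largest log2 fold change among the 9 tested, were HMGCS1 (0.029), LOC110256218 (0.029) and SHISA2 (0.030). HMGCS1, an enzyme of the sterol pathway, had 3.21 and 3.39 FPKM in Control 1 and 2 against 5.93 and 5.17 FPKM in Cu 1 and 3. With 8540 genes searched over 4 libraries, these likenesses are a description only.

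Around the members, 112 further genes of the same pathways were looked up, of which 97 had values and 73 were tested. Of these 73 genes, 49 were higher (67.1%, against 64.3% of all tested genes) and 24 lower in Cu, with a median log2 fold change of 0.22. In 13 genes the groups were separated upward and in 13 downward, 17.8% in each direction, against 25.4% and 13.4% of all genes. An unadjusted p of 0.05 or less was reached upward by 4 genes (5.48%, against 5.58% of all genes), RBX1, SKP1, GSTM3 and AKR1C1, and downward by none, and no gene reached an adjusted p of 0.05. Of these, AKR1C1 met the level required for a test only through its values in the Cu libraries. The median was -0.03 after quantile normalization and -0.04 without Cu 1, so the surplus of higher genes depended on the scaling and on Cu 1.

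Among the partners of superoxide dismutase and catalase, 4 of 5 genes had values, SOD3 being the exception, and none passed an unadjusted p of 0.05. PEX13, part of the peroxisomal docking complex, had 24.4 and 30.8 FPKM in Control 1 and 2 against 11.7 and 22.5 FPKM in Cu 1 and 3, with both Cu libraries lower and an unadjusted p of 0.136 in limma's test. PEX5, the receptor that carries catalase into peroxisomes, had 3.52 and 4.67 FPKM in Control against 7.45 and 4.65 FPKM in Cu, with overlapping groups. Of the other glutathione peroxidases, GPX2 and GPX5 had no values, and 2 of 6 were tested. GPX3, the secreted selenoenzyme, was the most abundant glutathione peroxidase transcript with 40.6 and 52.4 FPKM in Control 1 and 2 against 91.9 and 46.6 FPKM in Cu 1 and 3, above GPX1 in every library. GPX8, a peroxidase of the endoplasmic reticulum, had 11.3 and 9.71 FPKM in Control against 9.95 and 15.4 FPKM in Cu.

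Of 9 tested genes of glutathione synthesis, turnover and cystine supply, 6 were higher (66.7%, against 64.3% of all genes) and 3 lower. The median of this list, 0.23, was 0.04 without Cu 1, 1.03 without Cu 3 and -0.03 after quantile normalization. GGCT, which acts in the breakdown of gamma-glutamyl peptides, had 72.1 and 66.6 FPKM in Control 1 and 2 against 76.7 and 61.3 FPKM in Cu 1 and 3. SLC25A40, a mitochondrial carrier of glutathione, had 23.8 and 26.5 FPKM in Control against 16.5 and 27.0 FPKM in Cu, and in both genes the groups overlapped. CBS, GGT5, GGT7 and OPLAH had no values. Among 8 tested glutathione transferases the median was 0.48, but 0.13 without Cu 1 and 0.03 without Cu 3. GSTM3 had 517 and 305 FPKM in Control 1 and 2 against 1033 and 671 FPKM in Cu 1 and 3, which gave a log2 fold change of 1.07 with a standard error of 0.37 (adjusted p = 0.656 in limma's test, unadjusted 0.0278). It belongs to a family of close copies, between which reads could have been divided. HPGDS, a prostaglandin synthase of the transferase family, had 201.26 and 217.27 FPKM in Control 1 and 2, 200.01 FPKM in Cu 1 and 1134 FPKM in Cu 3. Cu 1 thus lay near the Control libraries, and only Cu 3 stood apart.

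The 8 glutaredoxin and glyoxalase genes were all tested, with none at an unadjusted p of 0.05 and a median of 0.21 that changed its sign to -0.25 without Cu 1, -0.06 with quantile normalization and -0.016 with median-of-ratios scaling. ADH5, which also breaks down S-nitrosoglutathione, had 541 and 531 FPKM in Control 1 and 2 against 364 and 397 FPKM in Cu 1 and 3, which gave a log2 fold change of -0.49 with separated groups (unadjusted p = 0.0891 in limma's test). GLRX2, the mitochondrial glutaredoxin, had 63.6 and 105 FPKM in Control, 72.7 FPKM in Cu 1 and 332 FPKM in Cu 3. Of 12 tested genes of NADPH supply, on which GSR depends, 4 were higher (33.3%, against 64.3% of all genes) and 8 lower. The groups were separated upward in 1 (8.33%, against 25.4% of all genes) and downward in 3 (25%, against 13.4%). These shares of all genes depended on the scaling, as quantile normalization gave 1355 genes separated upward and 2012 downward. The median was -0.05, which was -0.19 without Cu 1 and 0.09 without Cu 3. It was -0.27 with quantile normalization and -0.26 with median-of-ratios scaling. ME2, a mitochondrial malic enzyme, was counted in this list although it makes mainly NADH. It had 377 and 394 FPKM in Control 1 and 2 against 242 and 272 FPKM in Cu 1 and 3 (unadjusted p = 0.0604 in limma's test). IDH1, the cytosolic isocitrate dehydrogenase, had 39.6 and 56.9 FPKM in Control against 23.4 and 36.6 FPKM in Cu. In both genes the Cu libraries lay below the Control libraries without passing the test.

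The genes for selenoprotein synthesis, on which GPX1, GPX3 and GPX4 depend, had 6 tested members with a median of 0.06, which was -0.09 without Cu 1, and SCLY was listed at 0 in every library. SECISBP2, which binds the selenocysteine insertion element, had 78.1 and 73.7 FPKM in Control 1 and 2 against 60.1 and 52.2 FPKM in Cu 1 and 3. SEPHS2, which makes the selenium donor, had 57.2 and 68.3 FPKM in Control against 86.9 and 47.9 FPKM in Cu, with overlapping groups. Among 14 tested regulators of NRF2, 11 were higher (78.6%, against 64.3% of all genes) and 3 lower, 5 were separated upward (35.7%, against 25.4%) and 2 downward (14.3%, against 13.4%), and NFE2 had no values. Their median of 0.29 was 0.14 without Cu 1 and 0.02 after quantile normalization. RBX1, the RING subunit of cullin ligases including that of KEAP1, had 103 and 103 FPKM in Control 1 and 2 against 276 and 213 FPKM in Cu 1 and 3, which gave a log2 fold change of 1.23 with a standard error of 0.28 (adjusted p = 0.631 in limma's test, unadjusted 0.00481). SKP1, an adaptor of the ligase that acts on NRF2 through BTRC, had 275 and 321 FPKM in Control against 502 and 487 FPKM in Cu, which gave a log2 fold change of 0.73 with a standard error of 0.25 (adjusted p = 0.656, unadjusted 0.0274). Both were thus higher in each Cu library, and both act in many ligases besides those of NRF2.

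Of 16 NRF2 target genes outside the members, 10 were tested, with 8 higher (80%, against 64.3% of all genes), 2 lower and a median of 0.58. The median was 0.03 without Cu 1 and 0.91 without Cu 3. It was 0.36 with quantile normalization, 0.37 with median-of-ratios scaling and 0.16 with no filter, where all 16 genes were tested. AKR1C1, an aldo-keto reductase with close copies, had 0.63 and 0.51 FPKM in Control 1 and 2 against 1.77 and 2.5 FPKM in Cu 1 and 3, which gave a log2 fold change of 0.99 with a standard error of 0.34 (adjusted p = 0.656 in limma's test, unadjusted 0.0256). AKR1C1 reached 1 FPKM only in the Cu libraries, so it entered the test through the group in which it was high. Its p-value is therefore no support for a difference. FTL, the ferritin light chain, had 3267 and 1298 FPKM in Control against 3772 and 1807 FPKM in Cu. TXN, thioredoxin, had 866 and 502 FPKM in Control against 506 and 630 FPKM in Cu, and in FTL and TXN the groups overlapped. HMOX1, heme oxygenase 1 and a textbook target of NRF2, was singled out after its values were seen. It was listed at 0 in Control 1, Control 2 and Cu 3 and had 0.13 FPKM in Cu 1.

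**Figure D4:**
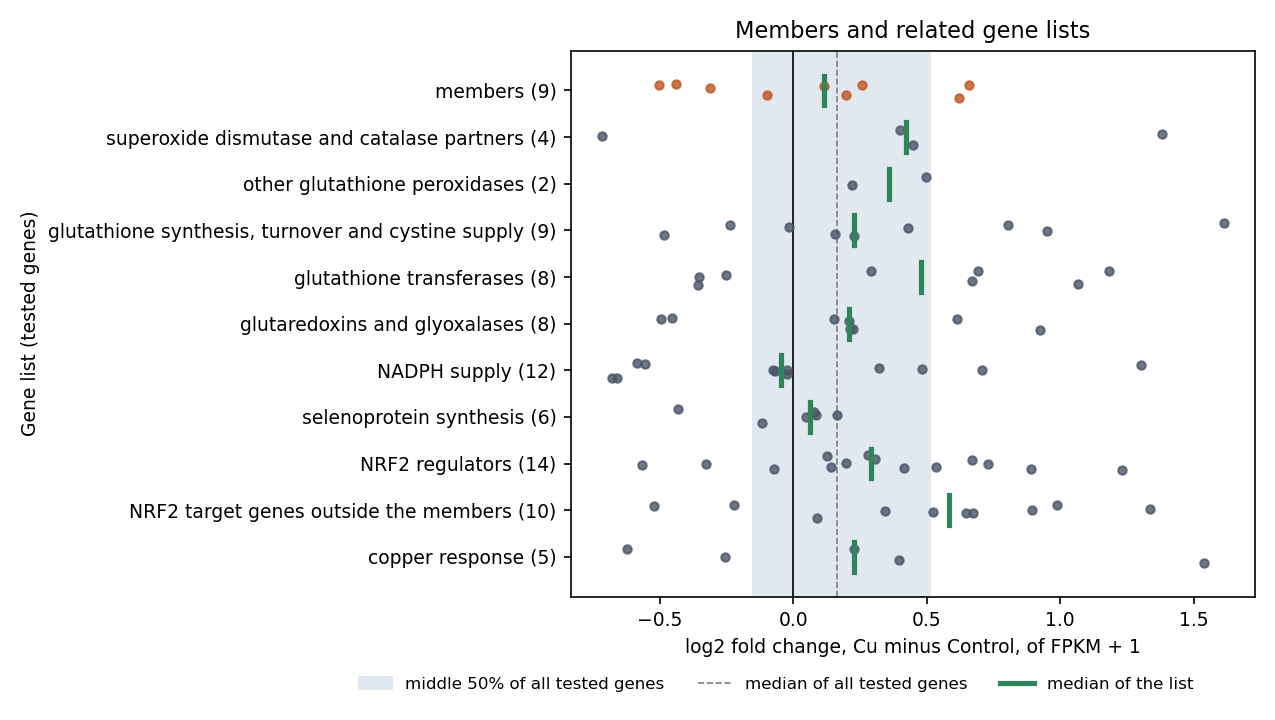
Log2 fold change of FPKM + 1, Cu minus Control, of the 9 tested members (orange) and of the tested genes of each related list (dark grey, number in brackets), with the median of each list as a green bar, the middle 50% of all 8541 tested genes shaded and their median as a dashed line. Most list medians lie within the shaded range of -0.15 to 0.51, and that of the NRF2 target genes lies at 0.58. That median was 0.36 after quantile normalization and 0.03 without Cu 1, which are not shown.

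Genes linked to copper and zinc, namely metallothioneins, the factor MTF1 and a zinc exporter, were also looked up. As an oocyte at metaphase II has largely ceased transcription, they were not taken as a check of the exposure, and whether they could serve as one was not tested. Of 6 such genes, MT2A had no values, and the other 5 were tested, their median log2 fold change being 0.23, with 3 higher, 2 lower and none at an unadjusted p of 0.05. MT1D, a metallothionein, had 14.0 and 12.7 FPKM in Control 1 and 2 against 6.21 and 19.1 FPKM in Cu 1 and 3. MTF1, the metal-responsive transcription factor, had 12.2 and 13.9 FPKM in Control against 24.1 and 9.72 FPKM in Cu. In both genes the Cu libraries lay on opposite sides of the Control libraries. The other 3, named after their values were seen, had separated groups. Of the 5 tested genes, 2 were separated upward (40%, against 25.4% of all genes) and 1 downward (20%, against 13.4%). MT3, a further metallothionein, had 8.1 and 1.91 FPKM in Control 1 and 2 against 19.6 and 9.87 FPKM in Cu 1 and 3 (log2 fold change 1.54, unadjusted p = 0.0541 in limma's test), and SLC30A1, a zinc exporter, had 1.03 and 1.09 FPKM in Control against 1.58 and 1.85 FPKM in Cu. MT1A, also a metallothionein, was lower in Cu, with 5.97 and 7 FPKM in Control against 3.31 and 4.44 FPKM in Cu. The median of the 5 genes was 0.47 without Cu 1 and 0.14 without Control 1. It was 0.05 with quantile normalization and -0.007 with median-of-ratios scaling.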

How the data were processed

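RNA-seq values of 4 libraries were used, with group and replicate taken from the labels. According to their methods, the authors used SOAPnuke to filter reads, HISAT2 and Bowtie2 to map them and RSEM to calculate expression, whereas the submitters' processing notes name TopHat2 2.0.13, Cufflinks 2.2.1, Cuffnorm and Cuffdiff and the build Sscrofa11.1. The deposited values are FPKM with 2 decimals, and the authors' mean FPKM of each group, which were used only as such. For all 16050 genes of both groups these means have the decimals of a mean over 3 libraries (tolerance 0.0001). Depth is unknown, so no interval from counts is given, and weakly expressed genes have an unknown precision.

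The 8541 genes that reached 1 FPKM in 2 libraries or more were compared on log2(FPKM + 1) with limma 3.58.1 in R 4.3.3 (variance trend, two-sided, Benjamini-Hochberg adjustment over all of them), and the fit was tested on simulated data. Adding 1 reduces the fold changes of genes with low FPKM. Confidence intervals are those of limma at 95%. Gene identifiers were matched to the RefSeq gene table of Sscrofa11.1, from which coordinates were taken, and all 16050 matched. A planned comparison by protein length was not run, and no sequence was used here. Beside the members, the text names from each list the 2 tested genes with the highest mean FPKM, every gene at an unadjusted p of 0.05 or less, and genes without values where there are 6 or fewer, and in addition the 3 genes most like SOD1 and GCLM, of which 1 is not reported here. The members and lists were chosen with earlier results of these data known. Alternatives were another pseudocount (0.1), no filter, quantile normalization, median-of-ratios scaling, no variance trend, the authors' means and leaving out each library.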

Additional observations from a re-analysis of the deposited data

How the results depend on the processing

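The log2 fold changes of GCLC, GCLM and NFE2L2 kept their direction in every setting tried. That of GPX1 did so in every setting except the authors' means (0.48). All settings, the authors' means included, share libraries, so they are not independent checks. Reversed values were found for SOD1 by the authors' means (-0.001), for SOD2 with median-of-ratios scaling (-0.04), for CAT, whose value was -0.51 to 0.31 with each library left out (0.31 without Control 2 and 0.16 without Cu 1), for GSR, at -0.63 to 0.005 (0.005 without Cu 1), and for GPX4, at -0.16 to 0.39 (-0.16 without Control 2, -0.049 without Cu 1), with quantile normalization (-0.18), median-of-ratios scaling (-0.047) and the authors' means (-0.23). The median of the 9 members was -0.18 with quantile normalization, which moved the median of all genes from 0.16 to -0.07, and it was 0.01 to 0.21 with each library left out. Leaving out a library gave 3 to 5 of the 9 members separated upward and 2 to 4 downward, as fewer libraries separate more easily. Over all 8541 tested genes it gave 3005 to 4966 separated upward and 1669 to 3168 downward. With 4 libraries, 2168 of all tested genes were separated upward and 1145 downward. The counts were 1355 and 2012 with quantile normalization and 1458 and 1876 with median-of-ratios scaling, so the more frequent direction depended on the scaling. The log2 ratio of NFE2L2 to KEAP1 kept its direction with each library left out and as a ratio of FPKM + 1, the settings run for it.

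Over all genes, no setting with 4 libraries gave a gene at an adjusted p of 0.05, while an unadjusted p of 0.05 was reached by 599 genes. With a library left out the remaining library of its group is assumed to vary like the other group, and the count at an adjusted p of 0.05 was then 0 to 1755 (186 without Cu 1, 1755 without Cu 3). With the log2 fold change limit of 1.5 added to an unadjusted p of 0.05, 150 genes were higher and 10 lower, compared with 246 and 24 at a pseudocount of 0.1, 22 lower with quantile normalization, 24 lower with median-of-ratios scaling, and 77 to 741 higher and 11 to 41 lower with each library left out. The share of higher genes among those at an unadjusted p of 0.05 was 79.6%, or 53.9% after quantile normalization. No paired analysis was possible because the groups share only the replicate number 1. The cause of these changes was not tested. The unknown depth limits what can be said of KEAP1, GPX4 and GCLM, which lie near or under 3 FPKM.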

Other observations

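Some genes of the same pathways, chosen after their values were seen, had 1 Cu library far from the other 3 libraries. DPEP1, a dipeptidase that acts on products of glutathione breakdown, had 1.77 and 1.8 FPKM in Control 1 and 2, 24.4 FPKM in Cu 1 and 1.86 FPKM in Cu 3. PRDX1, a peroxiredoxin, had 37.5 and 20.4 FPKM in Control 1 and 2, 158 FPKM in Cu 1 and 32.0 FPKM in Cu 3. In HPGDS and GLRX2, by contrast, it was Cu 3 that stood apart, with 1134 and 332 FPKM. CCS, the copper chaperone that loads SOD1, had 2.42 and 0.54 FPKM in Control 1 and 2 against 10.3 and 2.17 FPKM in Cu 1 and 3, with overlapping groups.

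SLC7A11, the cystine transporter that supplies glutathione synthesis, was lower in both Cu libraries, in contrast to GCLC and GCLM, with 4.16 and 4.6 FPKM in Control 1 and 2 against 3.41 and 2.34 FPKM in Cu 1 and 3 (unadjusted p = 0.234 in limma's test). CTH, which makes cysteine from cystathionine, was higher in both, with 3.14 and 4.24 FPKM in Control against 9.1 and 5.56 FPKM in Cu (unadjusted p = 0.094 in limma's test).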
